A study of Homo sapiens with 21 samples.

Results

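ABCB1 and 7 genes beside it on human chromosome 7 (RUNDC3B, ABCB4, ADAM22, CROT, DMTF1, SLC25A40 and SRI) were followed in BJ cells, 8 of the 61544 genes in the deposited count table. ABCB1 and RUNDC3B were selected on their measured values, which stood higher at P24 and P30 than at P3 and at P24 than at P11, and the other 6 for their position near 87 to 88 Mb, with earlier results of these libraries known. Poly(A) RNA was sequenced from BJ, an established line of human skin fibroblasts with a limited replicative lifespan, in 21 libraries. There were 7 groups, each with 3 libraries: cells of passage P3, P11, P24, P30 or P33 with no treatment named, P11 cells given DOX at 50 ng/ml (doxorubicin, a DNA-damaging drug that is itself a substrate of the ABCB1 pump), and P11 cells given DMSO, its solvent. All groups are of this 1 line. The labels do not say whether the libraries of a group came from separate cultures, so the p-values cover the spread among these libraries alone, and that spread may be technical.

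ABC transporters are membrane pumps that use ATP to move their cargo across a lipid bilayer. ABCB1 encodes P-glycoprotein, which exports many hydrophobic drugs and is known from multidrug-resistant tumour cells and from the barrier cells of brain capillaries, gut, liver and kidney. ABCB4, its closest relative in sequence and its neighbour on the chromosome, carries phosphatidylcholine into bile at the canalicular membrane of hepatocytes. Fibroblasts are not a cell type for which either pump is best known. The genes around this pair have unrelated roles, and several of them have been found amplified together with ABCB1 in cell lines selected for drug resistance.

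On hg38 the 8 genes ran, in order along the chromosome, from DMTF1 (chr7:87152409-87196337, plus strand) through CROT (chr7:87345664-87399794, plus), ABCB4 (chr7:87401696-87480435, minus), ABCB1 (chr7:87503017-87713323, minus), RUNDC3B (chr7:87627548-87832296, plus), SLC25A40 (chr7:87833568-87876360, minus) and ADAM22 (chr7:87934143-88202889, plus) to SRI (chr7:88205115-88226993, minus). ABCB4 and ABCB1 lie head to tail on the minus strand, 22581 bp apart. ABCB1 and RUNDC3B overlap by 85776 bp on opposite strands. In the GENCODE v29 annotation 163 of the 5806 exonic bases of ABCB1 (2.8%) fell inside the span of RUNDC3B, and 1531 of the 4710 exonic bases of RUNDC3B (32.5%) fell inside the span of ABCB1. 0 bases were exonic in both genes. The length the table gives equals the whole span of each gene, introns included, and whether reads were counted over exons or spans is not stated, nor is the strand setting. If whole spans were counted without strand, reads from the overlap of the pair could not be told apart. If exons alone were counted, exonic reads could be, as the genes share 0 exonic bases.

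RefSeq start windows, from 250 bases before to 50 bases after the first base, were matched by symbol for 7 of the 8 genes (9 windows, build GRCh38.p14); ABCB4 is named only. The windows of ABCB1, of its overlapping partner RUNDC3B and of ADAM22 are shown because these 3 genes had the largest differences between passages. They are written 5′ to 3′ on the strand of the gene, and capitals mark the motifs searched on both strands: the CCAAT box, the GC box GGGCGG, the core promoter motif TATAAA, the E-box CACGTG and the AP-1 motif TGANTCA, where N stands for any base.
ABCB1, downstream start, chr7:87600835-87601134, minus strand: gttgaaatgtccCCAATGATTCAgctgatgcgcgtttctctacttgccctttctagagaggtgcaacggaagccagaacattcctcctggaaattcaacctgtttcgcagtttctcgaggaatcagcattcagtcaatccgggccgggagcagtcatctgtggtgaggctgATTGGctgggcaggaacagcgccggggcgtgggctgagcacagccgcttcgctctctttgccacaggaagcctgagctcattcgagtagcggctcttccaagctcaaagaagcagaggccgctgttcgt
ABCB1, upstream start, chr7:87713246-87713545, minus strand: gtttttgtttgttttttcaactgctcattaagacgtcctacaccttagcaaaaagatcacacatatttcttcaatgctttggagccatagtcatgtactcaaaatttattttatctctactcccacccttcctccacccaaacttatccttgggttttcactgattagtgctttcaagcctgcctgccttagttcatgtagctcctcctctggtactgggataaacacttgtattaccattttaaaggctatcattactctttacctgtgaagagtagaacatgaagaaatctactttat
RUNDC3B, chr7:87628148-87628447, plus strand: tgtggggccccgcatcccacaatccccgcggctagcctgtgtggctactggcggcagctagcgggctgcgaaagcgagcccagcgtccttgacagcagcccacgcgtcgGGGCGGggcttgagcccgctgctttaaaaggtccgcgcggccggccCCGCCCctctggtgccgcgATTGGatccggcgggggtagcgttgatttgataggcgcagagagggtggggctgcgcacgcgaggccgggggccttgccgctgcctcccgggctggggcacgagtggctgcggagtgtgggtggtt
ADAM22, chr7:87934001-87934300, plus strand: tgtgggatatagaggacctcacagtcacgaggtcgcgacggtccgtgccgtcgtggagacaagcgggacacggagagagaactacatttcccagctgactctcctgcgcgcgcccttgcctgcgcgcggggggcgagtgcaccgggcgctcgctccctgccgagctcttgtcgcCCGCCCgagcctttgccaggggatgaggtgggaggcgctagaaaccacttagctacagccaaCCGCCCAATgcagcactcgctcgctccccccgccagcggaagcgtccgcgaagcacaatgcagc
The downstream ABCB1 window held CCAAT on its own strand at -238 and on the other strand, read as ATTGG, at -79, where -1 is the base before the first base of the transcript. Its TGATTCA at -234 shares 1 base with the CCAAT at -238. The upstream ABCB1 window, 112411 bp away, held none of the 5 motifs, 1 CpG and 37.7% G and C. The RUNDC3B start lies 27514 bp from the downstream ABCB1 start, on the opposite strand and reading away from it, and its window held an inverted CCAAT at -76, GGGCGG at -141 and its inverse at -95. The ADAM22 window held CCAAT at -10, which shares 2 bases with an inverted GGGCGG at -14, and another inverted GGGCGG at -76. Of all 35116 RefSeq windows of this length, 34.6% held CCAAT, 45.0% GGGCGG, 11.5% TATAAA, 7.3% CACGTG and 7.7% TGANTCA. G and C made up 55.3% of the downstream ABCB1 window, 71.3% of the RUNDC3B window and 66.3% of the ADAM22 window, against a median of 58.7% over all windows. These are matches of letters in a window, not sites known to be bound in these cells.

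**Figure D1:**
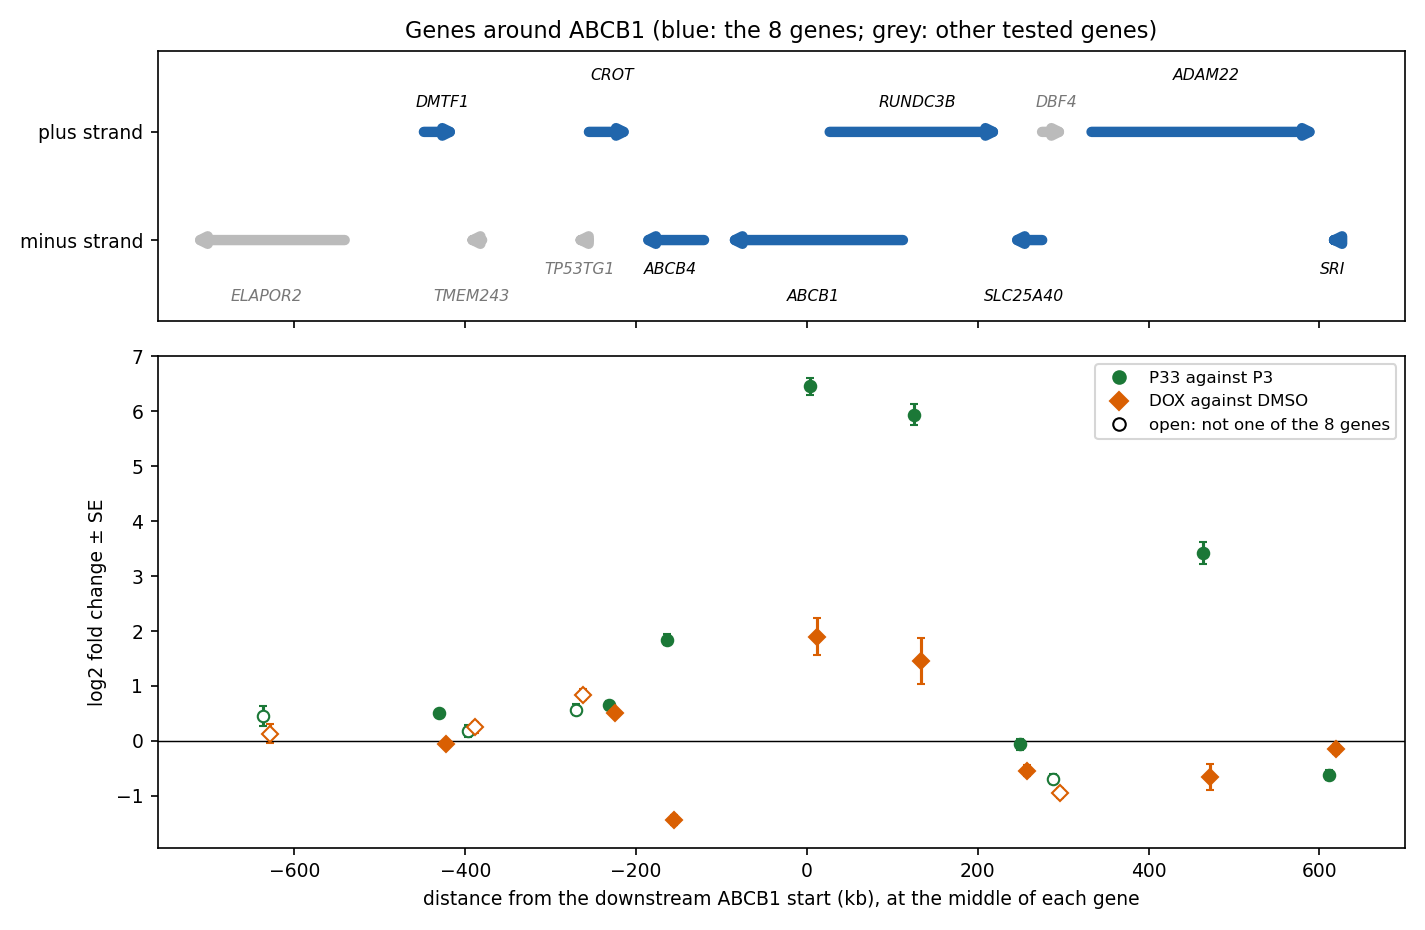
The upper panel places the 8 genes (blue) and the other 4 tested genes of the region (grey) by strand and by distance in kb from the downstream ABCB1 start, with arrows in the direction of transcription. The lower panel gives the log2 fold change with its standard error at the middle of each gene, for P33 against P3 (green circles) and DOX against DMSO (orange diamonds), with open symbols for the 4 other genes. ABCB1 and RUNDC3B stand highest in both comparisons, and ABCB4 lies above 0 for P33 and below 0 for DOX.

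Library totals ran from 12.946 to 27.194 M counts. Levels are given as CPM (counts-per-million) on library sizes scaled by TMM, edgeR's trimmed mean of M-values. CPM are not divided by gene length, so they are compared between samples and not between genes. Of the 61544 genes, 16821 passed the filter on low counts and were tested, all 8 of these genes among them, though ABCB1 and RUNDC3B had under 20 reads in each P3, P11 and DMSO library. The 15 passage libraries and the other 6 were counted differently: among 9429 genes enclosed by a gene of their own strand, 3950 had a read with DOX or DMSO and 0 in any passage library. Of 11533 genes enclosed by a gene of the opposite strand and by none of their own, 4665 had a read in a passage library and 4371 with DOX or DMSO. Levels are therefore not set across the 2 kinds of library, and 684 of the tested genes had 0 reads in the passage libraries. Among the 8 genes, DMTF1 has such a gene inside it, a small RNA of 172 bp. The fibroblast label was borne out by its markers, with 8 of 8 at 1 CPM or more in every group. Of 6 endothelial markers, 1 or 2 were at 1 CPM or more in each group (TEK in all of them). Per library, CDH5 and CLDN5 had at most 2 reads, TEK 18 to 107, VWF 5 to 44, PECAM1 0 to 13 and EMCN 0 to 14. In bulk RNA, fewer cells of a type and less RNA per cell cannot be told apart.

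ABCB1 was barely detected in early cells and stood far higher at each of the 3 later passages. It had 17, 14 and 8 reads at P3 (0.663, 0.539 and 0.392 CPM) and 12, 18 and 10 reads at P11 (0.627, 0.886 and 0.632 CPM). At P24 the 3 libraries had 13.3, 13.8 and 14.5 CPM, at P30 24, 23.3 and 25.1 CPM, and at P33 42.7, 53.8 and 47.5 CPM. Every later library lay above every early one, and P24, P30 and P33 did not overlap one another, while P11 and P3 overlapped. The means were 0.532 ± 0.135 CPM at P3, 0.715 ± 0.148 at P11, 13.9 ± 0.573 at P24, 24.1 ± 0.908 at P30 and 48.0 ± 5.58 at P33 (SD, n = 3 each). Against P3, the log2 difference was 0.41 at P11 (SE 0.326), 4.67 at P24 (SE 0.171), 5.46 at P30 (SE 0.16) and 6.45 at P33 (SE 0.146), the last an 87.6-fold ratio. No test is attached to these values, since the gene was chosen for them. Ranked by log2 fold change against P3 over the 16821 tested genes, ABCB1 was 12th at P24, 13th at P30 and 28th at P33. Most of the difference fell between P11 and P24, at 19.1-fold, and the later steps were 1.73-fold between P24 and P30 and 1.99-fold between P30 and P33. The endothelial markers, whose cells carry ABCB1 in the body, summed to 4.02 to 4.4 CPM in the P3 libraries, 4.87 to 5.69 in those of P11, 3.02 to 3.8 in those of P24, 3.17 to 3.56 in those of P30 and 6.3 to 7.5 in those of P33. Their part in the ABCB1 values was not tested. Markers of hepatocytes and kidney tubule summed to at most 0.183 CPM in any library.

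RUNDC3B, which encodes a protein with a RUN domain, a fold found in partners of small GTPases, followed the same course. Its libraries had 14, 7 and 3 reads at P3 (0.546, 0.27 and 0.147 CPM) and 7, 8 and 11 reads at P11 (0.366, 0.394 and 0.695 CPM). They had 7.91, 6.84 and 7.05 CPM at P24, 15, 12.8 and 16.7 CPM at P30, and 19.1, 22.8 and 20.6 CPM at P33. P3 and P11 overlapped, and each later passage lay wholly above the one before it. Against P3 the log2 difference was 0.49 at P11 (SE 0.429), 4.42 at P24 (SE 0.231), 5.44 at P30 (SE 0.209) and 5.94 at P33 (SE 0.196), the last a 61.4-fold ratio. These are again a description of the values the gene was chosen for. Replicate 1 of P3 held 14 of the P3 reads, and without it the log2 differences from P3 were 1.1 at P11, 5.04 at P24, 6.05 at P30 and 6.56 at P33. Over the 15 passage libraries, Pearson's r between log2(CPM + 0.5) of RUNDC3B and ABCB1 was 0.995, the highest of 16136 genes ranked. The points share their libraries and fall into an early and a late cluster, and the genes overlap, so this r is a description.

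**Figure D2:**
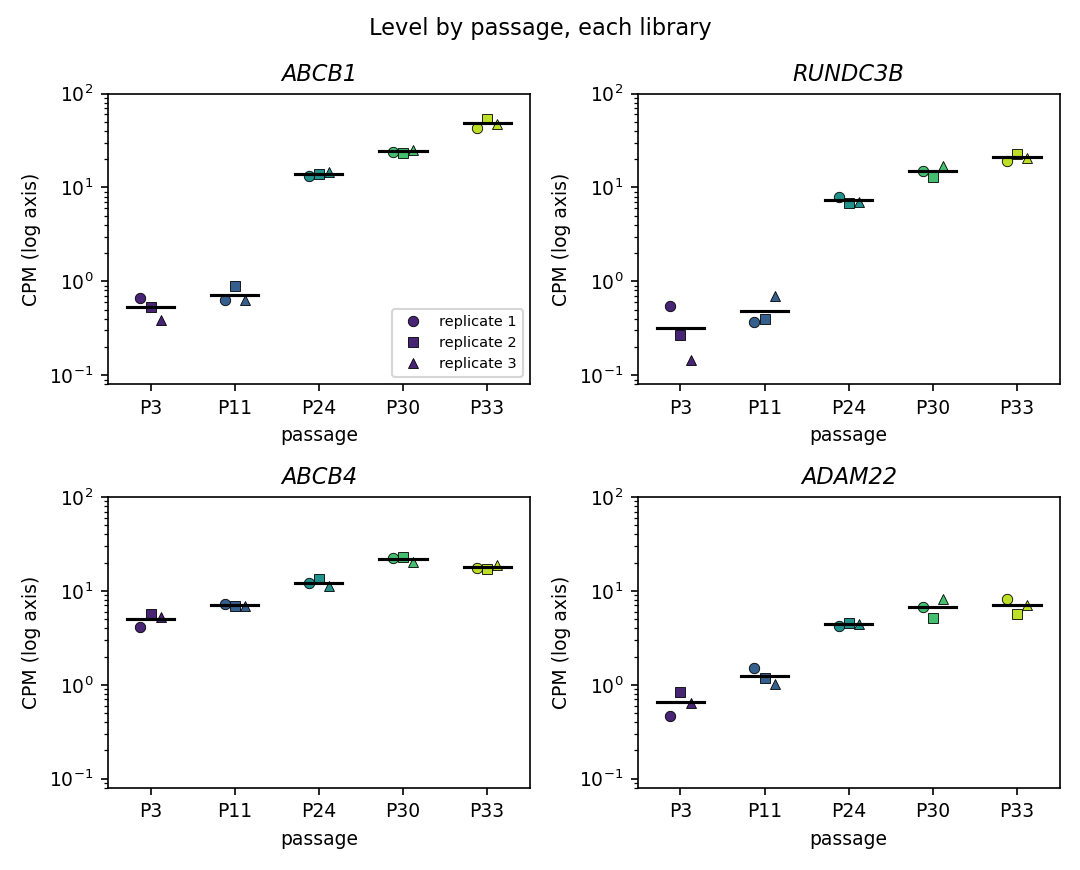
CPM on a log axis in each library of the 5 passages for ABCB1, RUNDC3B, ABCB4 and ADAM22, with marker shape for the replicate and a horizontal line at the mean of 3 libraries. ABCB1 and RUNDC3B lie under 1 CPM at P3 and P11 and above 6 CPM from P24 on; ABCB4 is highest at P30, with a mean of 22.0 CPM.

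As a share of the reads of the overlapping pair, RUNDC3B differed far less between groups than the level of either gene did. RUNDC3B took 38.1% of the pair's pooled reads at P3 (95% Wilson interval 27.1 to 50.4), 39.4% (28.5 to 51.5) in P11 libraries, 34.2% (31.6 to 36.9) in P24 libraries, 37.8% (35.7 to 40.0) in P30 libraries and 30.3% (29 to 31.7) in P33 libraries. In the other 6 libraries it took 37.8% with DOX (29.8 to 46.5) and 45.5% with DMSO (29.8 to 62.0). The share at P33 was the lowest, and its interval did not reach that of P30. It is a share of reads, not of molecules, since the genes differ in length, and the intervals cover counting error only. In the passage libraries genes enclosed on the opposite strand kept reads (4665 of 11533) where those enclosed on their own strand had 0 (of 9429), but reads of one gene of the pair counted to the other were not measured. A pseudogene inside ABCB1 on the opposite strand, HNRNPA1P9, had 1 read in the passage libraries together.

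**Figure D3:**
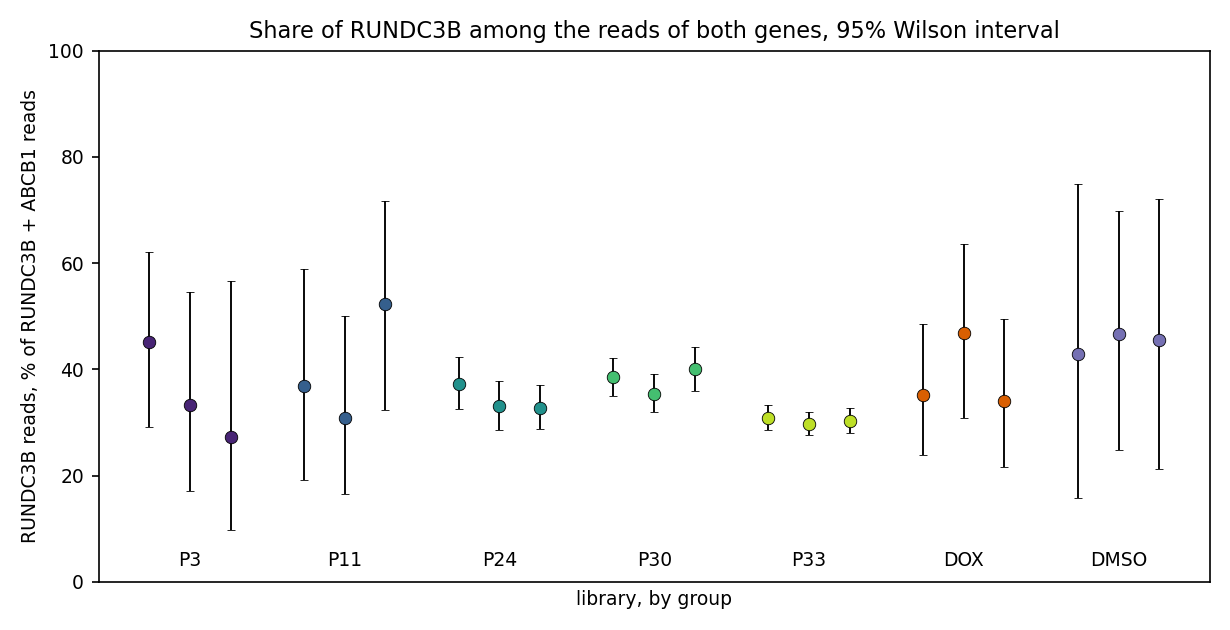
RUNDC3B reads as a percent of RUNDC3B plus ABCB1 reads, in each library (points) with its 95% Wilson interval (vertical bars), by group. The per-library shares run from 27.3 to 52.4%, and the widest intervals belong to the groups with the fewest reads, P3, P11 and DMSO.

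For the 6 neighbours chosen by position, passage comparisons were tested with edgeR's quasi-likelihood test over all 16821 genes with Benjamini-Hochberg adjustment, at an adjusted p under 0.05. At P33, 4 of the 6 rose against P3 (ABCB4, ADAM22, CROT and DMTF1), SRI fell and SLC25A40 was not called, where 34.5% of all tested genes rose and 33.3% fell (67.8% called). Their median log2 fold change was 0.58, against 0.00 over all tested genes. At P11 against P3, 5 of the 6 were called (4 higher, or 2 without replicate 1 of P3 or of P11) where 46.5% of all genes were, and between P30 and P24 4 of the 6 where 35.1% were. In the comparisons used to choose ABCB1 and RUNDC3B, 6 of the 6 were called at P24 against P3 (54.4% of all genes; SLC25A40 was not called without replicate 1 or 3 of P3 or replicate 1 of P24), 5 at P30 against P3 (58.6%) and 4 at P24 against P11 (33.6%), from which nothing is read. Epithelial markers summed to 58.5 to 69.4 CPM at P33 and 189.0 to 202.0 at P3 (KRT5 at 0 in both), leukocyte markers to 1.03 to 1.17 at P33 and 0.455 to 0.873 at P3 (CD3E at 0 in both), and their part in these results was not tested. With 33.6 to 67.8% of all tested genes called, or 35.1 to 70.8% of those with reads in the 2 groups, a call alone sets none of these genes apart.

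ABCB4, the phosphatidylcholine pump next to ABCB1, also rose with passage, by less and with its highest level at P30. Its libraries had 4.17, 5.62 and 5.3 CPM at P3, 7.26, 6.94 and 6.83 at P11, 12, 13.5 and 11.3 at P24, 22.6, 22.9 and 20.4 at P30, and 17.7, 17.3 and 18.9 at P33. No passage overlapped another. ABCB4 rose at P11 against P3 by 0.48 on the log2 scale (SE 0.114, edgeR adjusted p = 0.000723) and at P30 against P24 by 0.85 (SE 0.0886, adjusted p = 2.26e-09). It fell at P33 against P30 by 0.3 (SE 0.0838, adjusted p = 0.00392), between the same libraries in which ABCB1 stood 1.99-fold higher. At P33 it was still 3.58-fold above P3 (log2 1.84, SE 0.0975, adjusted p = 4.06e-17).

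ADAM22, a catalytically inactive member of the ADAM metalloprotease family that serves as a receptor for the secreted protein LGI1 in brain, was a low-count gene that rose with passage. It had 0.468, 0.848 and 0.638 CPM at P3, 1.51, 1.18 and 1.01 at P11, 4.27, 4.52 and 4.4 at P24, 6.74, 5.21 and 8.29 at P30, and 8.3, 5.7 and 7.14 at P33. P3, P11 and P24 did not overlap one another, P30 lay above P24, and P33 overlapped P30. At P33 ADAM22 was 10.7-fold above P3 (log2 3.42, SE 0.209, edgeR adjusted p = 1.41e-15). At P30 against P24 it rose 1.51-fold (adjusted p = 0.00403). The rise at P11 against P3, by 0.93 (adjusted p = 0.0108), was not called without replicate 1 of P3 (adjusted p = 0.0748) or of P11 (adjusted p = 0.0811). The 4 neuronal markers summed to 77.3 to 83.1 CPM in the P3 libraries, 151.0 to 156.0 in those of P11, 146.0 to 152.0 in those of P24, 117.0 to 128.0 in those of P30 and 140.0 to 149.0 in those of P33. Among the passages, RBFOX3, the marker of mature neurons, was at 0 at P11 alone. Of the 4 markers in the list, 3 were at 1 CPM or more at every passage. That list was also lowest at P3, and its part in the ADAM22 result was not tested.

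CROT, the peroxisomal carnitine octanoyltransferase that hands medium-chain acyl groups to carnitine, rose in small steps. Its libraries had 34.4, 39.1 and 34.3 CPM at P3, 41.4, 39.6 and 38.1 at P11, 44.8, 49.8 and 47.2 at P24, 56.3, 53.8 and 54.6 at P30, and 56.5, 56.2 and 58.2 at P33. P11 overlapped P3 and P33 overlapped P30, while P24 lay between. At P33 CROT was 1.58-fold above P3 (log2 0.66, SE 0.059, edgeR adjusted p = 1.2e-11), and at P30 it rose 1.16-fold against P24 (adjusted p = 0.0047). Its 1.1-fold difference at P11 against P3 was not called (adjusted p = 0.0537, with a range of 0.0113 to 0.409 over the alternatives).

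DMTF1, a Myb-like transcription factor that binds D-type cyclins and is known to activate the ARF product of CDKN2A, was lowest at P3 and did not follow passage order after that. It averaged 57.6 ± 1.16 CPM at P3, 80.4 ± 3.62 at P11, 69.9 ± 5.09 at P24, 75.2 ± 1.85 at P30 and 81.4 ± 1.88 at P33 (SD, n = 3 each). Every library of a later passage lay above the highest P3 library, at 58.9 CPM. It rose by 0.48 at P11 (SE 0.062, edgeR adjusted p = 1.23e-07) and by 0.5 at P33 (SE 0.0614, adjusted p = 1.38e-08) against P3. The differences at P30 against P24 and at P33 against P30 were 0.11 each and were not called (adjusted p = 0.205 and 0.127).

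SLC25A40 and SRI did not share the upward course. SLC25A40, a mitochondrial carrier related to the glutathione importer SLC25A39, averaged 14.1 ± 0.733 CPM at P3, 17.2 ± 1.33 at P11, 16.8 ± 0.72 at P24, 13.2 ± 0.337 at P30 and 13.5 ± 0.938 at P33 (SD, n = 3 each). Its P30 libraries all lay below those of P24, a fall of 0.35 on the log2 scale (SE 0.101, edgeR adjusted p = 0.00714). Its rise at P11 against P3, by 0.29 (adjusted p = 0.0119), was not called without replicate 1 of P3 (adjusted p = 0.0605) or of P11 (adjusted p = 0.0965), and at P33 against P3 the value was -0.06 (SE 0.0966, adjusted p = 0.635). SRI encodes sorcin, a penta-EF-hand calcium-binding protein that regulates ryanodine receptors and was first known from drug-resistant cells in which its gene was amplified with ABCB1. It averaged 28.4 ± 1.74 CPM at P3, 23.1 ± 0.688 at P11, 23.5 ± 0.609 at P24, 23.9 ± 2.6 at P30 and 18.4 ± 1.69 at P33 (SD, n = 3 each). P33 was lowest, with 16.8, 18.2 and 20.2 CPM, all below the P30 libraries, and its fall at P33 was 0.62 against P3 (SE 0.0838, adjusted p = 7.76e-08) and 0.38 against P30 (SE 0.0885, adjusted p = 0.000656). SRI also fell at P11 against P3, by 0.29 (SE 0.0833, adjusted p = 0.00443).

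**Figure D4:**
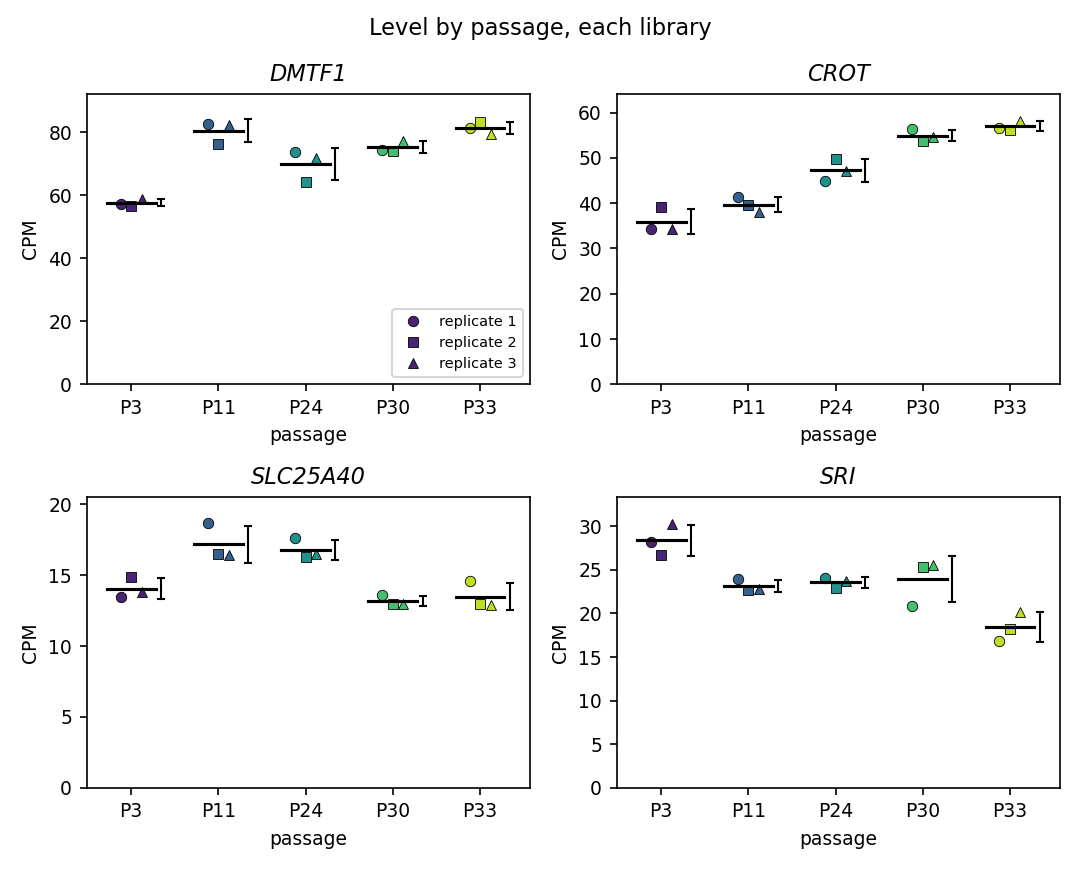
CPM on linear axes from 0 in each library of the 5 passages for DMTF1, CROT, SLC25A40 and SRI, with marker shape for the replicate, a horizontal line at the mean of 3 libraries and a bar for its SD. CROT climbs from P3 to P33, DMTF1 is lowest at P3, and SRI is lowest at P33, with a mean of 18.4 CPM.

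Between P33 and P30, the last step, the 8 genes moved in different directions. ABCB1 stood 1.99-fold and RUNDC3B 1.41-fold higher at P33 than at P30, as a description. Of the 6 neighbours, ABCB4 and SRI fell and 4 were not called, where 24.8% of all genes fell and 48.4% were called. ADAM22 differed by 0.09 (SE 0.149, edgeR adjusted p = 0.664) and CROT by 0.05 (SE 0.0587, adjusted p = 0.495).

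The DOX and DMSO libraries are not those whose values chose ABCB1 and RUNDC3B, so all 8 genes were tested there. Earlier results of these data were known when the 8 were chosen. Of the 8, ABCB1, RUNDC3B and CROT rose with DOX, ABCB4, SLC25A40 and ADAM22 fell, and DMTF1 and SRI were not called, where 16.7% of all tested genes rose and 20.6% fell (37.3% called). The same 6 were the genes whose groups did not overlap, as in 42.8% of all genes. Their median log2 fold change was -0.11, against -0.01 over all genes. The overlapping pair thus moved up, and ABCB4 and ADAM22, which were higher at late passage as the pair was, moved down. Summed leukocyte markers were at 1.6 to 2.21 CPM with DOX and 0.583 to 0.825 with DMSO, epithelial markers at 151.0 to 180.0 with DOX (KRT5 at 0) and 90.5 to 112.0 with DMSO (KRT5 and KRT14 at 0), neuronal markers at 60.7 to 64.1 with DOX and 103.0 to 108.0 with DMSO, and endothelial markers at 2.21 to 2.32 with DOX and 2.44 to 3.57 with DMSO. Their part in these results was not tested.

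ABCB1 had 35, 17 and 27 reads with DOX (1.41, 0.853 and 1.38 CPM), against 4, 8 and 6 reads with DMSO (0.18, 0.485 and 0.352 CPM). All 3 DOX libraries lay above all 3 DMSO libraries, at low counts. ABCB1 rose 3.74-fold (log2 1.9, SE 0.337, edgeR adjusted p = 2.59e-05), the 301st largest rise of 16821 genes, and over the alternatives the log2 value ran from 1.54 to 2.25. RUNDC3B had 19, 15 and 14 reads with DOX (0.766, 0.753 and 0.714 CPM), against 3, 7 and 5 reads with DMSO (0.135, 0.424 and 0.293 CPM). It rose 2.73-fold (log2 1.45, SE 0.419, adjusted p = 0.00629). That call rested on replicate 1 of DMSO, its lowest library: without it the log2 value was 1.04 and the adjusted p 0.0775.

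ABCB4 had 6.09, 6.67 and 5.96 CPM with DOX, against 16.1, 17.1 and 17.5 CPM with DMSO. The groups stood well apart, and ABCB4 fell 2.7-fold (log2 -1.44, SE 0.0983, edgeR adjusted p = 8.68e-14), the 389th largest fall. SLC25A40 had 12.9, 14.1 and 10 CPM with DOX, against 19.8, 18.3 and 15.7 CPM with DMSO, and fell 1.46-fold (log2 -0.54, SE 0.0981, adjusted p = 3.52e-05). ADAM22 had 1.17, 1.41 and 1.53 CPM with DOX, against 2.25, 2.06 and 2.11 CPM with DMSO. It fell 1.58-fold (log2 -0.66, SE 0.234, adjusted p = 0.0244), and the call was lost without replicate 1 of DOX (adjusted p = 0.106) or of DMSO (adjusted p = 0.0792).

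CROT had 46.7, 46.0 and 43.3 CPM with DOX, against 30.6, 32.1 and 33.1 CPM with DMSO, and rose 1.42-fold (log2 0.51, SE 0.0619, edgeR adjusted p = 4.14e-08). Its groups stood apart by more than their whole ranges. DMTF1 averaged 92.2 ± 7.21 CPM with DOX and 96.1 ± 6.31 CPM with DMSO (SD, n = 3 each), and its log2 value of -0.06 (SE 0.0603, adjusted p = 0.462) was not called. SRI averaged 21.6 ± 2.59 CPM with DOX and 24 ± 1.9 CPM with DMSO, with a log2 value of -0.15 (SE 0.0858, adjusted p = 0.169). Both genes' groups overlapped.

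**Figure D5:**
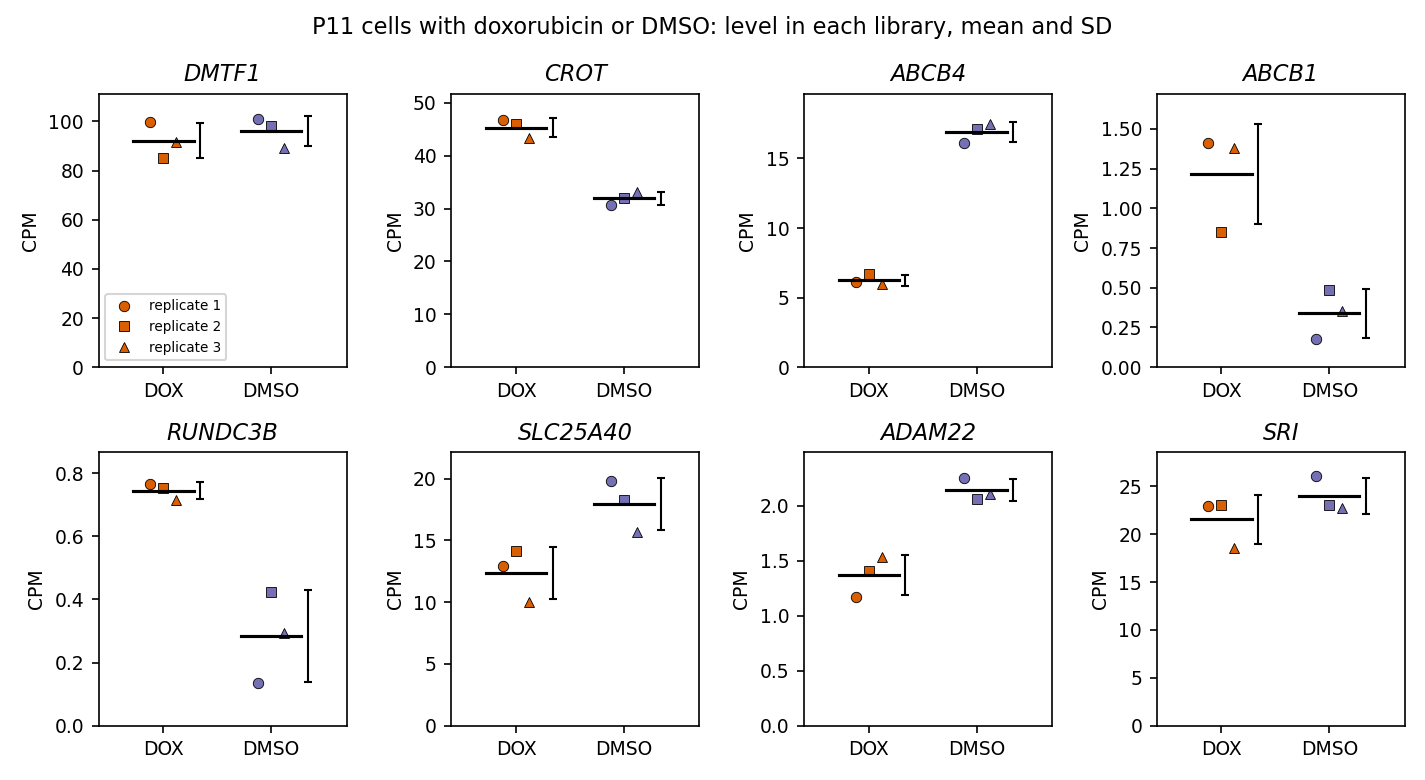
CPM of the 8 genes in each of the 3 DOX (left) and 3 DMSO (right) libraries, 1 panel per gene with its own linear axis from 0 and bars for the mean and SD. The DOX libraries lie wholly above the DMSO libraries for ABCB1, RUNDC3B and CROT and wholly below for ABCB4, SLC25A40 and ADAM22.

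Between 86 and 89 Mb the table held 29 other genes, of which 4 passed the filter. DBF4, the regulatory subunit of the CDC7 kinase that starts DNA replication, lies on the opposite strand and overlaps the start of SLC25A40 by 145 bp in the table's coordinates, so reads there could not be told apart without strand. It averaged 25.7 ± 3.33 CPM at P3, 19.3 ± 1.53 at P11, 16.0 ± 0.662 at P24, 11.6 ± 0.753 at P30 and 15.9 ± 0.782 at P33, and 11.1 ± 1.21 CPM with DOX against 21.4 ± 1.48 with DMSO (SD, n = 3 each). DBF4 fell with DOX by 0.95 on the log2 scale (SE 0.0939, edgeR adjusted p = 5.04e-10), as SLC25A40 did. Against P3, DBF4 fell by 0.4 at P11 and 0.68 at P24 (adjusted p = 0.000232 and 6.75e-08), where SLC25A40 rose by 0.29 and 0.26 (adjusted p = 0.0119 and 0.0231). Both SLC25A40 calls were lost when some single libraries were left out (adjusted p up to 0.0965 and 0.091). At P30 against P24 both fell, DBF4 by 0.47 and SLC25A40 by 0.35. TP53TG1, a long non-coding RNA whose RefSeq start lies 172 bp from that of CROT on the opposite strand, averaged 15.9 ± 0.844 CPM with DOX and 8.93 ± 0.929 CPM with DMSO, and rose by 0.84 (SE 0.1, adjusted p = 2.91e-08), as CROT did. Over the passages TP53TG1 was not called at P24 or P30 against P3 (log2 0.11 and 0.03, adjusted p = 0.399 and 0.879), where CROT was higher. TP53TG1 rose at P33 against P30 by 0.55 (adjusted p = 2.85e-05), where CROT was not called, and CROT alone rose at P30 against P24. Both rose at P33 against P3, TP53TG1 by 0.57 (adjusted p = 2.92e-06) and CROT by 0.66. Both also rose at P24 against P11, by 0.28 (adjusted p = 0.0398) and 0.25 (adjusted p = 0.00153). Neither was called at P11 against P3. TMEM243 overlaps DMTF1 by 178 bp and was not called with DOX (log2 0.25, SE 0.102, adjusted p = 0.0518). ELAPOR2, the farthest of the 4, averaged 2.29 ± 0.294 CPM at P3, 3.01 ± 0.842 at P11, 2.09 ± 0.415 at P24, 0.583 ± 0.0744 at P30 and 3.15 ± 0.207 at P33, so P30 alone was low. The genes nearest ABCB1 on either side, ABCB4 and RUNDC3B, thus moved in opposite directions with DOX.

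Over the passage libraries, ADAM22 ranked 57th in likeness to ABCB1 (r = 0.966), CROT 107th (r = 0.954) and ABCB4 191st (r = 0.937) of 16136 genes, while DMTF1 had r = 0.48, SLC25A40 r = -0.42 and SRI r = -0.659. The 5 protein-coding genes outside the 8 that were most like ABCB1, among those that reached 5 CPM in a passage group and overlap no gene of their strand, were SERPINI1, PLEKHH2, PNMA2, CD36 and GJA5. SERPINI1, the serine protease inhibitor neuroserpin, averaged 2.82 CPM at P3, 2.97 at P11, 9.2 at P24, 9.78 at P30 and 11.7 at P33 (r = 0.984). GJA5, the gap junction protein connexin 40, averaged 1.36, 0.789, 7.09, 8.92 and 15.1 CPM at the same passages (r = 0.981). CD36, a fatty acid scavenger receptor that is also on chromosome 7, averaged 4.67, 4.64, 13.8, 13.8 and 16.6 CPM (r = 0.981). With DOX, SERPINI1 rose by 1.04 (SE 0.205, edgeR adjusted p = 0.00011), GJA5 by 1.38 (SE 0.252, adjusted p = 3.95e-05) and PNMA2 by 0.5 (SE 0.129, adjusted p = 0.0024), while CD36 (log2 -0.04, adjusted p = 0.823) and PLEKHH2 (log2 0.13, adjusted p = 0.228) were not called.

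At P30 against P3 the other genes of the ABCB family and the other drug pumps moved in both directions. Of all tested genes, 58.6% were called at P30 against P3 and 37.3% with DOX. Of 6 tested ABCB family genes outside the 8 with a read at P30 or P3, 2 rose and 1 fell at P30 against P3, with a median log2 fold change of -0.09. At P33 against P30, 0 of 6 rose and 4 fell (median -0.3), where 24.8% of all genes fell. With DOX, 0 of 7 rose and 1 fell (median -0.08). ABCB5, under 1 CPM, averaged 0.644 ± 0.427 CPM at P30 and 0.194 ± 0.0376 CPM at P3 (log2 1.8, SE 0.484, edgeR adjusted p = 0.00189). TAP1, a subunit of the peptide transporter that loads MHC class I, averaged 40.7 ± 2.58 CPM at P30 and 25.9 ± 2.06 CPM at P3, and the mitochondrial transporter ABCB8 averaged 15.7 ± 1.15 CPM at P30 and 25.8 ± 1.3 CPM at P3 (edgeR adjusted p = 2.42e-06 and 6.94e-09). Of 10 tested efflux pumps and related genes, 5 rose and 1 fell at P30 against P3 (median 0.14), and 2 rose and 4 fell with DOX (median -0.08). ABCC4, which exports nucleotides and prostaglandins, averaged 43.8 ± 0.956 CPM with DOX and 71.3 ± 5.31 CPM with DMSO, and fell by 0.7 (SE 0.0627, adjusted p = 5.1e-11). ABCC3, an exporter of organic anions, averaged 49.2 ± 2.26 CPM with DOX and 34 ± 0.933 CPM with DMSO, and rose by 0.53 (SE 0.0647, adjusted p = 3.89e-08). The largest efflux pump change at P30 was that of ABCC6, at 1.49 ± 0.441 CPM against 0.448 ± 0.227 CPM at P3 (log2 1.76, SE 0.362, adjusted p = 9.12e-05).

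Of 22 tested factors that have been reported at the ABCB1 promoter, 10 rose and 6 fell at P30 against P3 (median 0.01), where 58.6% of all genes were called. With DOX 4 rose and 6 fell (median 0.00), where 37.3% of all genes were called. EGR1, a zinc finger factor of the immediate early response, averaged 189.0 ± 113.0 CPM at P30 and 13.5 ± 0.619 CPM at P3 (log2 3.82, SE 0.285, edgeR adjusted p = 2.94e-13), with a wide spread among the P30 libraries. FOS, a subunit of AP-1, averaged 10.4 ± 7.94 CPM at P30 and 1.65 ± 0.489 CPM at P3 (adjusted p = 0.000265). FOXO1 averaged 1.86 ± 0.18 CPM at P30 and 0.644 ± 0.21 CPM at P3 (adjusted p = 4.97e-06). With DOX, FOS averaged 22.5 ± 1.54 CPM, against 12.4 ± 1.37 CPM with DMSO, and was not called (log2 0.85, SE 0.405, adjusted p = 0.0995). Among the called factors at a group mean of 1 CPM or more, the largest change with DOX was in CEBPB, a leucine zipper factor. CEBPB averaged 41.8 ± 5.74 CPM with DOX and 73.7 ± 6.56 CPM with DMSO and fell by 0.82 (SE 0.0891, adjusted p = 3.98e-09). NR1I2, the nuclear receptor PXR, lay under 1 CPM, at 0.417 ± 0.203 CPM with DOX and 0.125 ± 0.0622 CPM with DMSO, and rose (log2 1.73, SE 0.69, adjusted p = 0.0468). The levels of these factors' RNA say nothing of their binding.

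The lists built around the neighbours moved in part. Of 18 tested peroxisomal and carnitine enzymes, the company of CROT, 11 rose and 3 fell at P30 against P3 (median 0.21, where 58.6% of all genes were called). With DOX 4 rose and 1 fell (median 0.07, where 37.3% were called). At P33 against P30, 14 fell (median -0.32, where 24.8% of all genes fell). At that step 2 of 22 promoter factors rose and 9 fell, and 3 of 10 efflux pumps rose and 3 fell. Among 6 ABCB family genes 0 rose and 4 fell. CPT2, the mitochondrial carnitine palmitoyltransferase, averaged 12.5 ± 1.55 CPM at P30 and 6.29 ± 0.871 CPM at P3 (edgeR adjusted p = 8.59e-09). Of the 4 tested partners and paralogs of ADAM22, 1 rose and 2 fell at P30 against P3, and with DOX edgeR called 0, with 2 at an unadjusted p under 0.05, 0 by DESeq2, and 1 with DESeq2 size factors in the edgeR fit or a filter at a mean of 1 CPM. The paralog ADAM23 averaged 9.8 ± 0.967 CPM at P30 and 11.4 ± 0.193 CPM at P3 (adjusted p = 0.0345), there against the direction of ADAM22. At P24 against P3 ADAM23 rose by 0.52 (edgeR adjusted p = 5.37e-06), as ADAM22 did. Of the DMTF1 circuit, 3 of 5 tested genes with reads rose and 1 fell at P30 against P3, and 4 of 6 rose with DOX; CCND2 had 0 reads in the passage libraries. CDKN2A averaged 6.49 ± 0.893 CPM at P30 and 16.6 ± 1.59 CPM at P3 (log2 -1.35, SE 0.126, adjusted p = 5.76e-11). At P33 CDKN2A averaged 11.8 ± 1.56 CPM, above P30 (log2 0.86, adjusted p = 1.97e-06) and below P3 (log2 -0.49, adjusted p = 0.000234). These are reads of the whole gene, not of its ARF product alone. MDM2, a p53 target that restrains p53, averaged 458.0 ± 51.1 CPM with DOX and 164.0 ± 4.62 CPM with DMSO (log2 1.48, SE 0.0625, adjusted p = 4.47e-19).

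Among 8 tested carriers related to SLC25A40 and enzymes of glutathione synthesis, 3 rose and 2 fell at P30 against P3 (median 0.00) and 3 rose and 1 fell with DOX (median 0.07). GCLM, the regulatory subunit of the first enzyme of glutathione synthesis, averaged 65.9 ± 1.7 CPM at P30 and 26.3 ± 1.39 CPM at P3, and 68.6 ± 7.56 CPM with DOX and 46.1 ± 3.04 CPM with DMSO (edgeR adjusted p = 3.91e-16 and 9.4e-08). Of the calcium genes grouped with SRI, 6 of 14 with reads rose and 4 fell at P30 against P3 (median 0.53), and 4 of 15 rose and 4 fell with DOX (median -0.04), where a filter at a mean of 1 CPM left 5 called. Among the inositol trisphosphate receptors, ITPR1 averaged 34.6 ± 2.5 CPM at P30 and 10.2 ± 0.15 CPM at P3, and ITPR3 averaged 116.0 ± 3.99 CPM at P30 and 288.0 ± 7.66 CPM at P3 (adjusted p = 2.22e-17 and 5.3e-17). The ryanodine receptors averaged under 1 CPM in every group. RYR2 was at 0.844 ± 0.279 CPM with DOX and 0.015 ± 0.026 CPM with DMSO, RYR3 was at 0.764 ± 0.174 CPM with DOX and 0.0352 ± 0.0315 CPM with DMSO, and both rose (adjusted p = 6.14e-06 and 1.96e-05). RYR1 rose at P30, to 0.41 ± 0.268 CPM against 0.0908 ± 0.125 CPM at P3 (adjusted p = 0.0133), and was not called with DOX (adjusted p = 0.0743). Of 6 tested genes grouped with RUNDC3B by RUN domain or its small GTPases, 2 rose at P30 against P3 and 2 fell with DOX. RUFY3 averaged 78.7 ± 1.98 CPM at P30 and 63.6 ± 3.39 CPM at P3, a rise of 0.31 (SE 0.0552, adjusted p = 1.34e-05). As shares of their tested members, these counts stand beside 58.6% of all genes called at P30 against P3 and 37.3% with DOX.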

How the data were processed

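Per the labels' protocols, poly(A)-selected RNA was reverse-transcribed from random hexamers, the cDNA was adaptor-ligated, and 18 cycles of PCR followed. The submitters' processing notes name HISAT2 2.1.0, featureCounts 2.0.1 of Subread, SAMtools 1.11, cutadapt 3.3, FastQC 0.11.9 and DESeq2 1.34.0, with hg38 and GRCh38.p13 as builds. No option, strand included, was found in the sources used here. The authors deposited whole-number read counts per gene, not normalized. From these counts, genes were filtered with filterByExpr, scaled by TMM and fitted over all 7 groups with edgeR 4.0.16 (R 4.3.3), and each comparison was tested with the quasi-likelihood test, with Benjamini-Hochberg adjustment over 16821 genes; the fit was tested on simulated data. Depth was 12.946 to 27.194 M counts per library.

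The 8 genes and all lists were chosen with earlier results of these data known. Other genes were named by rule: tested genes between 86 and 89 Mb, the 5 most like ABCB1, and up to 3 called genes per list with the largest change at a group mean of 1 CPM or more; ABCB5, NR1I2 and the ryanodine receptors, under that level, were chosen after their values were seen. Some genes this rule names are not reported here. The lists were 9 sets around the 8 genes and 6 sets of cell type markers (fibroblast, endothelial, epithelial, hepatocyte and tubule, leukocyte, neuronal). Alternatives were DESeq2 1.42.0, other scalings and filters, fits of each part apart, a replicate block and leaving out each library. Promoter windows came from RefSeq and exons from GENCODE v29.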

Additional observations from a re-analysis of the deposited data

How the results depend on the processing

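All 8 genes kept the direction of their DOX result, and ABCB1, ABCB4, CROT and SLC25A40 kept their call under every alternative run; leaving out 1 library brought the number of the 8 that rose with DOX to 2 to 3 and that fell to 2 to 3. With 1 library left out, the RUNDC3B log2 difference from P3 lay between 0.19 and 1.1 for P11, 4.13 and 5.04 for P24, 5.15 and 6.05 for P30, and 5.65 and 6.56 for P33, the upper ends without replicate 1 of P3. The neighbours called numbered 2 to 5 higher at P11 against P3, 0 to 1 lower at P30 against P3 (0 without replicate 3 of P3 or replicate 1 of P30) and 0 to 1 lower at P24 against P11 (0 without replicate 1 of P11 or replicate 2 of P24). At P33 against P30 the neighbours called higher numbered 1, DMTF1, with a filter at a mean of 1 CPM and with the parts fitted apart, against 0 as reported (0.16 and 0.14 on the log2 scale); the cause was not tested. Values near 0 that were not called changed sign: SLC25A40 was 0.01 at P33 against P3 with the 1 CPM filter, 0.03 at P24 against P11 without replicate 1 of P11 (range -0.07 to 0.03) and -0.03 at P33 against P30 without replicate 1 of P33 (range -0.03 to 0.08). SRI at P30 against P24 was -0.00036, -0.03 and -0.02 without replicate 2 of P24 and replicates 2 and 3 of P30, within -0.03 to 0.11. ADAM22 at P33 against P30 was -0.08 and -0.05 without replicate 2 of P30 and replicate 1 of P33, within -0.08 to 0.24. The cause was not tested.

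Samples of the same number did not deviate together (correlations from -0.126 to 0.06), so the numbers pair nothing. With a replicate block, DOX called 6221 genes, against 6278 without it, and 3 of the 8 genes higher and 3 lower in both fits. Depth limits ABCB1 and RUNDC3B at P3, P11 and with DMSO, and ADAM22 at P3, where libraries held few reads.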
